A study of Mus musculus with 18 samples.

Results

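The BCL-2 family is described here by the 10 genes Bcl2, Bcl2l1, Mcl1, Bax, Bak1, Bcl2l11, Bid, Bad, Bbc3 and Pmaip1. They were chosen by name, with earlier results of these data known. All probes annotated to these genes were taken from an Illumina MouseRef-8 bead array, which gave 25 probes for 9 genes out of 25697 probes for 16593 named genes in all. No annotated probe for Bax was in the table used here, so Bax was not analysed. Of the 25 probes, 22 were among the 13409 probes tested, which had a detection p below 0.05 on at least 3 of the 18 arrays. The detection p compares the signal of a probe with that of the negative control beads on the same array, and a value of 0.05 or more is called at background.

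RNA came from bone marrow cells of C57BL/6 mice of 2 to 3 months of age. The control cells (ERα f/f, labelled ERalphaf/f control) carried floxed alleles of the estrogen receptor α gene without Cre, and came from littermates of the ERα ΔLysM mice. In ERα ΔLysM mice the same alleles are deleted by Cre driven from the lysozyme M locus, which is active in the myeloid lineage, granulocytes included. Bone marrow-derived macrophages (BMMs, which the labels call osteoclast progenitors) were grown in M-CSF at 30 ng/ml. Pre-osteoclasts and mature osteoclasts were obtained from them with M-CSF and RANKL, both at 30 ng/ml, for 2 and 4 days. Estradiol was added for 4 h in all groups, a step that the labels do not mention. Each of the 6 groups had 3 arrays. The methods name 3 mice as the source of BMMs, but do not state whether the arrays of a group were separate mice. The p-values therefore measure the spread between these samples, which may be technical.

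The arrays of 1 group correlated at 0.985 to 0.994 over the tested probes, and between 10770 and 12031 probes were detected per array. Both Esr1 probes, for the targeted gene, were at background on all 18 arrays, so that the deletion could not be checked with them. Osteoclast markers marked the stages: with genotypes averaged, 9 of 10 tested markers rose from BMMs to pre-osteoclasts and 10 of 10 to mature osteoclasts. Calcr, Dcstamp, Ocstamp and Car2 were at background in the BMMs of both genotypes. Itgb3, not called in pre-osteoclasts, was at background in ERα f/f mature osteoclasts, so that its rise of 0.48 rests on ERα ΔLysM arrays. All 5 tested macrophage markers and all 8 tested neutrophil markers fell at both RANKL stages. The number of arrays limits the precision of every value below.

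The proteins of this family decide whether the outer mitochondrial membrane stays closed or becomes permeable, which is the committing step of the intrinsic pathway of apoptosis. BAX and BAK form the pores, the anti-apoptotic members (BCL-2, BCL-XL encoded by Bcl2l1, and MCL-1) hold them in check, and the BH3-only members (BIM encoded by Bcl2l11, BID, BAD, PUMA encoded by Bbc3 and NOXA encoded by Pmaip1) neutralise the anti-apoptotic members or activate the pore formers. Osteoclasts are short-lived cells, and BIM and BCL-XL are known regulators of their survival in mice.

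The members are spread over the mouse genome (GRCm38.p6): Bcl2 on chromosome 1, Bcl2l11 and Bcl2l1 on 2, Mcl1 on 3, Bid on 6, Bbc3 and Bax on 7, Bak1 on 17, Pmaip1 on 18 and Bad on 19. RefSeq start-site windows were at hand for 9 of the 10 members, 15 windows in all, each from 250 bases before to 50 bases after a start. The windows were searched on both strands for the FOXO motif GTAAACA, the GC box GGGCGG, the E-box CACGTG, the AP-1 motif TGANTCA, the NFAT core GGAAA and the palindromic estrogen response element. The FOXO motif was in 2 of the 15 windows, 1 of Bcl2l11 and 1 of Bbc3, against 3.65% of all 32851 mouse windows of the same length. The GC box was in 10 of 15 windows (35.7% of all windows), the NFAT core in 11 (61.3%) and the E-box in 2 (7.15%). Neither the AP-1 motif (7.81%) nor the estrogen response element (0.07%) was found in them. A match is a description of letters and not a binding site.

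The bases before the start site are given for both windows with a FOXO match and for Bcl2, which was detected on few arrays after RANKL. The Bcl2l11 window lies at chr2:128125788-128126037 on the plus strand and its match starts 227 bases before the start site. The Bbc3 window lies at chr7:16310011-16310260 on the plus strand, with its match on the opposite strand starting 167 bases before the start site. The Bcl2 window lies at chr1:106714291-106714540 on the minus strand and holds 7 GC boxes. They were chosen after the motif search. Capitals mark the FOXO motif in Bcl2l11 and Bbc3 and the GC boxes in Bcl2, each sequence written 5′ to 3′ in the direction of the gene.
Bcl2l11: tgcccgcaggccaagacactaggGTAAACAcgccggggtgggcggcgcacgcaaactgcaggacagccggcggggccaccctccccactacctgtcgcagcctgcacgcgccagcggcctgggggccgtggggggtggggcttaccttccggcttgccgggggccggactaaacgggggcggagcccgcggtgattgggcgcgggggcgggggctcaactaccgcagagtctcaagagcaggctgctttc
Bbc3: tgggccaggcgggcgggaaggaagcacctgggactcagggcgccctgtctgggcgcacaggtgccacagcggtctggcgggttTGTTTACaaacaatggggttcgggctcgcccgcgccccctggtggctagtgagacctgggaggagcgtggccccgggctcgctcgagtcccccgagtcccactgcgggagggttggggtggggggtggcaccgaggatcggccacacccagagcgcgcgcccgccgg
Bcl2: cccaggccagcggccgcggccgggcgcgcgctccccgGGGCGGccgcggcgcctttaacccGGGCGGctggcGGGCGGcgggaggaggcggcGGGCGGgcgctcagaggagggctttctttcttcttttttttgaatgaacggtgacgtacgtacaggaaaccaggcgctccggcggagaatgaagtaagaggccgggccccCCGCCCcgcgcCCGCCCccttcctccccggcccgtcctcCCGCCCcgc

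Most of the family changed with the stage of differentiation, and no member probe passed the test between genotypes. The anti-apoptotic genes Bcl2 and Bcl2l1 fell from BMMs to pre-osteoclasts and stayed low, whereas Mcl1 was detected on every array. Among the BH3-only genes Bcl2l11 was highest in pre-osteoclasts and Pmaip1, Bad and Bbc3 in mature osteoclasts, with Pmaip1 rising at both steps. The Bid probes disagreed, and the one detected on all 18 arrays fell from stage to stage. Of the 22 tested probes, 16 passed an adjusted p of 0.05 between pre-osteoclasts and BMMs (7 higher, 9 lower), beside 56.0% of all tested probes (30.1% higher, 25.9% lower), and the stages did not overlap in 13 of 22, beside 36.2%. Between mature osteoclasts and BMMs 19 of 22 passed (10 higher, 9 lower), beside 68.2% of all (34.8% higher, 33.4% lower), and 18 did not overlap, beside 49.7%. Between the later stages 13 of 22 passed (9 higher, 4 lower), beside 56.7% of all (27.8% higher, 28.9% lower), and 8 did not overlap, beside 34.0%. A probe that was kept for its level in 1 stage had to differ, so that these counts are a description and the family is given gene by gene. Differences are on the log2 scale after normexp background correction and quantile normalization, with both genotypes averaged, and adjusted p-values are Benjamini-Hochberg values of limma over 13409 probes.

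**Figure D1:**
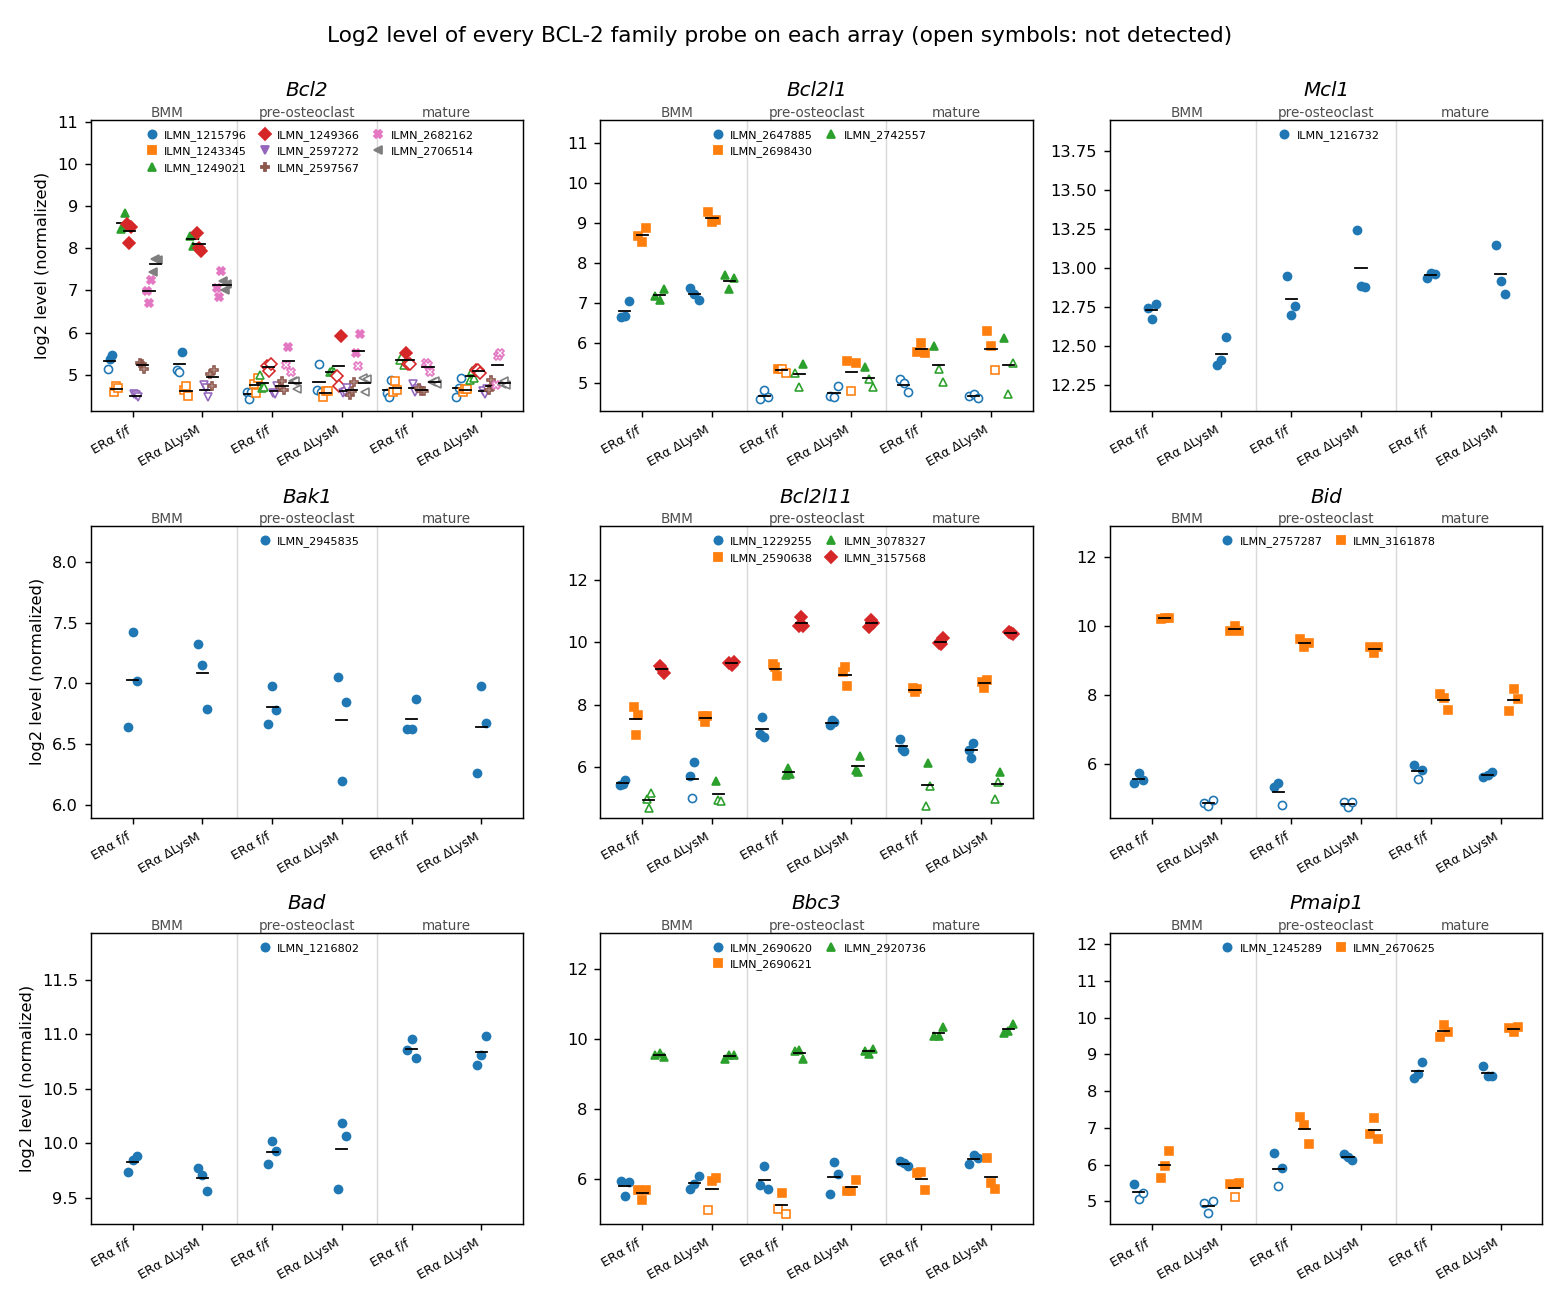
Normalized log2 level (y axis, a different range in each panel) of the 25 member probes on each of the 18 arrays, grouped by stage and genotype on the x axis; each symbol is 1 array, open symbols are arrays where the probe was not detected, and black lines are group means. The tested Bcl2 and Bcl2l1 probes are highest in BMMs, and both Pmaip1 probes climb from stage to stage. ERα f/f and ERα ΔLysM arrays do not overlap in 10 of the 22 tested probes in BMMs (23.6% of all tested probes). In pre-osteoclasts this holds for 3 (10.2%) and in mature osteoclasts for 4 (14.2%).

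Bcl2, the founding anti-apoptotic member, had 8 probes annotated to its long (NM_009741) or short (NM_177410) transcript. ILMN_1243345 and ILMN_2597272 were at background on all 18 arrays and ILMN_2597567 was detected on 1 array, so these 3 were not tested. The other 5 were all highest in BMMs. ILMN_1249021 ranged from 8.06 to 8.85 in the 6 BMM arrays (median 8.38), from 4.69 to 5.09 in pre-osteoclasts (median 5.02) and from 4.88 to 5.45 in mature osteoclasts (median 5.17). It was detected on 6 of 6 BMM arrays and on none of the 12 arrays with RANKL, and the stages with RANKL did not overlap with BMMs. Set against the lowest signal that was still detected, Bcl2 by this probe was at least 8.14-fold lower in pre-osteoclasts and at least 7.38-fold lower in mature osteoclasts. Such a bound takes, for each array, the higher of the lowest detected signal and the signal of the probe itself. It compares means and carries no sampling error. This probe passed the filter through its BMM arrays alone, so that a difference was fixed in advance and no p-value is given. The same holds for every probe detected in BMMs alone.

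The remaining Bcl2 probes went the same way. ILMN_2706514 was at least 3.98-fold lower in pre-osteoclasts and at least 3.61-fold lower in mature osteoclasts, also undetected on all 12 arrays with RANKL. ILMN_1249366, detected on 1 of 6 arrays at either later stage, fell by 3.06 in pre-osteoclasts and fell by 3.04 in mature osteoclasts (SE 0.16 each), values that rest on signals mostly at background after RANKL. ILMN_2682162, to the short transcript, fell by 1.62 (SE 0.17) in pre-osteoclasts. In mature osteoclasts ILMN_2682162 was at background and at least 2.88-fold lower than in BMMs. ILMN_1215796, also to the short transcript, was detected on 3 of 18 arrays, all of them BMMs, and gives no fold. Among the probes counted as higher in mature osteoclasts than in pre-osteoclasts was ILMN_1249021, at background on every array of both stages, whose difference of 0.22 (adjusted p = 0.0408) therefore has no fold. This call was lost without any 1 of 9 arrays (adjusted p up to 0.101).

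Bcl2l1 encodes BCL-XL, the anti-apoptotic member that guards the outer membrane in many long-lived and terminally differentiated cells. All 3 of its probes fell. ILMN_2698430 ranged from 8.51 to 9.26 in BMMs (median 8.95), from 4.79 to 5.55 in pre-osteoclasts (median 5.35) and from 5.32 to 6.30 in mature osteoclasts (median 5.85), with no overlap between BMMs and either later stage. The fall was 3.60 (SE 0.15), or 12.2-fold, in pre-osteoclasts (adjusted p = 4.29e-12) and 3.06 (SE 0.15), or 8.32-fold, in mature osteoclasts (adjusted p = 1.98e-11). ILMN_2698430 was detected on 3 of 6 pre-osteoclast and 5 of 6 mature osteoclast arrays. Its pre-osteoclast mean of 5.30 lay among the lowest detected signals of those arrays (5.28 to 5.50). The 12.2-fold value therefore rests in part on signals at background. ILMN_2742557, detected on 2 of 6 arrays at either later stage, fell by 2.20 and 1.93 (SE 0.20 each). These values rest on signals mostly at background after RANKL. ILMN_2647885 was at background on all 12 arrays with RANKL, lower by at least 3.07-fold in pre-osteoclasts and by at least 2.79-fold in mature osteoclasts.

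From pre-osteoclasts to mature osteoclasts Bcl2l1 moved up a little by 1 probe. ILMN_2698430, detected on 3 of 6 pre-osteoclast arrays and on 5 of 6 mature osteoclast arrays, rose by 0.55 (SE 0.15, adjusted p = 0.00661), with overlapping ranges. The other probes either differed by 0.27 (ILMN_2742557, adjusted p = 0.277, and 0.0374 without ERα ΔLysM mature osteoclast replicate 2), or were at background at both stages (ILMN_2647885). With arrays centred on their median in place of quantile normalization, the rise was 0.39 and did not pass the test (adjusted p = 0.097).

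Mcl1 encodes a short-lived anti-apoptotic protein. Its single probe was detected on all 18 arrays. Levels ranged from 12.38 to 12.77 in BMMs (median 12.62), from 12.70 to 13.24 in pre-osteoclasts (median 12.88) and from 12.83 to 13.15 in mature osteoclasts (median 12.95). Mature osteoclasts lay above every BMM array, and pre-osteoclasts overlapped with BMMs. Mcl1 rose by 0.31 (SE 0.08, adjusted p = 0.00416) in pre-osteoclasts and by 0.37 (SE 0.08, adjusted p = 0.000863) in mature osteoclasts. Median-centred arrays gave 0.12 (adjusted p = 0.677) and 0.41 (adjusted p = 0.0681), so that the Mcl1 rise did not pass under that scaling.

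Bak1, which encodes the pore former BAK, was the only effector with a probe. It was detected on all 18 arrays. Levels ranged from 6.64 to 7.43 in BMMs (median 7.08), from 6.19 to 7.05 in pre-osteoclasts (median 6.81) and from 6.26 to 6.98 in mature osteoclasts (median 6.65). The 3 stages overlapped, and the spread within a stage (SD 0.25 to 0.31) was close to the differences between them. Bak1 differed by -0.31 (95% interval -0.66 to 0.05, adjusted p = 0.138) in pre-osteoclasts and by -0.39 (95% interval -0.74 to -0.03, adjusted p = 0.0532) in mature osteoclasts. The latter value passed the threshold with several other settings, among them the fit on only the arrays of the stages compared (adjusted p = 0.0467) and median-centred arrays (-0.72, adjusted p = 0.00132). It also passed without any 1 of 5 arrays: ERα f/f BMM replicate 1 (adjusted p = 0.0202), ERα ΔLysM BMM replicate 3 (0.0308), ERα ΔLysM pre-osteoclast replicate 1 (0.046) or 2 (0.0295), or ERα ΔLysM mature osteoclast replicate 2 (0.0248).

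Bcl2l11 encodes BIM, a BH3-only protein that binds all anti-apoptotic members. All 4 probes rose in pre-osteoclasts. ILMN_3157568 ranged from 9.03 to 9.36 in BMMs (median 9.26), from 10.50 to 10.80 in pre-osteoclasts (median 10.58) and from 9.94 to 10.34 in mature osteoclasts (median 10.21). No 2 stages overlapped in this probe, and pre-osteoclasts were the highest. The rise was 1.38 (SE 0.07), or 2.61-fold, in pre-osteoclasts (adjusted p = 7.15e-11) and 0.93 (SE 0.07), or 1.91-fold, in mature osteoclasts (adjusted p = 7.32e-09). Between the later stages Bcl2l11 fell by 0.45 (SE 0.07, adjusted p = 6.86e-05).

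The other Bcl2l11 probes had the same order of stages. ILMN_1229255 rose by 1.76 (SE 0.16) and then fell by 0.72 (SE 0.16, adjusted p = 0.00141). ILMN_2590638, the probe annotated to NM_009754, rose by 1.49 (SE 0.14) and then fell by 0.46 (SE 0.14, adjusted p = 0.00967). ILMN_3078327, the least often detected, was detected on 1 of 6 BMM arrays, 6 of 6 pre-osteoclast arrays and 2 of 6 mature osteoclast arrays. It rose by 0.90 (SE 0.21, adjusted p = 0.00133) in pre-osteoclasts, and its difference of 0.40 in mature osteoclasts did not pass (adjusted p = 0.095). The latter passed without ERα f/f mature osteoclast replicate 1 (0.57), ERα ΔLysM BMM replicate 1 (0.50) or ERα ΔLysM mature osteoclast replicate 1 (0.52).

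Bid encodes a BH3-only protein that caspase-8 cleaves downstream of death receptors, and its 2 probes disagreed. ILMN_3161878, detected on all 18 arrays, ranged from 9.86 to 10.24 in BMMs (median 10.10), from 9.22 to 9.62 in pre-osteoclasts (median 9.40) and from 7.54 to 8.19 in mature osteoclasts (median 7.91). The stages did not overlap and each was lower than the one before. Bid by this probe fell by 0.64 (SE 0.11, adjusted p = 6.2e-05) in pre-osteoclasts and fell by 2.21 (SE 0.11), or 4.61-fold, in mature osteoclasts (adjusted p = 9.21e-12).

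ILMN_2757287, the second Bid probe, was detected on 10 of 18 arrays. Its values ranged from 4.80 to 5.74 in BMMs, from 4.76 to 5.46 in pre-osteoclasts and from 5.57 to 5.99 in mature osteoclasts. By this probe Bid differed by -0.20 in pre-osteoclasts (adjusted p = 0.126, and 0.0489 without ERα f/f pre-osteoclast replicate 2) and rose by 0.52 (SE 0.11, adjusted p = 0.00041) in mature osteoclasts, the opposite direction to the other probe, with overlapping ranges. Both probes are annotated to NM_007544, and their own sequences were not analysed here. The rise did not pass with median-centred arrays (0.34, adjusted p = 0.112).

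Bad and Bbc3 rose late. Bad, whose protein is held inactive when phosphorylated by survival kinases, ranged from 9.56 to 9.89 in BMMs (median 9.76), from 9.58 to 10.18 in pre-osteoclasts (median 9.98) and from 10.71 to 10.98 in mature osteoclasts (median 10.83). Mature osteoclasts lay above every array of the other stages. The difference was 0.18 (adjusted p = 0.131) in pre-osteoclasts, and 0.27 (adjusted p = 0.00787) without ERα ΔLysM pre-osteoclast replicate 1, the lowest of that group. Bad rose by 1.10 (SE 0.10), or 2.14-fold, in mature osteoclasts (adjusted p = 3.02e-08).

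Bbc3 encodes PUMA, a target of p53 and of FOXO factors that binds all anti-apoptotic members. Its probe ILMN_2920736 ranged from 9.42 to 9.61 in BMMs (median 9.54), from 9.43 to 9.73 in pre-osteoclasts (median 9.66) and from 10.09 to 10.42 in mature osteoclasts (median 10.21). Mature osteoclasts again stood above all other arrays. Bbc3 differed by 0.10 (adjusted p = 0.272) in pre-osteoclasts and rose by 0.70 (SE 0.08), or 1.63-fold, in mature osteoclasts (adjusted p = 3.42e-07). ILMN_2690620 rose by 0.66 (SE 0.15, adjusted p = 0.000917), and ILMN_2690621 differed by 0.39 (adjusted p = 0.0722). The last passed, at 0.47 to 0.48, without ERα f/f mature osteoclast replicate 3, ERα ΔLysM BMM replicate 3 or ERα ΔLysM mature osteoclast replicate 3. With median-centred arrays the value of ILMN_2690620 was 0.38 (adjusted p = 0.0846).

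Pmaip1 encodes NOXA, a BH3-only protein that binds chiefly MCL-1. It had the widest range of all BH3-only members. ILMN_2670625 ranged from 5.11 to 6.36 in BMMs (median 5.58), from 6.58 to 7.30 in pre-osteoclasts (median 6.96) and from 9.46 to 9.81 in mature osteoclasts (median 9.66). No 2 stages overlapped. Pmaip1 rose by 1.28 (SE 0.15), or 2.43-fold, in pre-osteoclasts (adjusted p = 1.03e-06) and by 3.97 (SE 0.15), or 15.7-fold, in mature osteoclasts (adjusted p = 2.84e-13).

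The second Pmaip1 probe gave the same picture. ILMN_1245289 was detected on 1 of 6 BMM arrays, 5 of 6 pre-osteoclast arrays and 6 of 6 mature osteoclast arrays. It rose by 0.98 (SE 0.13) and by 3.45 (SE 0.13), and by 2.47 (SE 0.13) between the later stages. For ILMN_2670625 the last step was 2.69 (SE 0.15), or 6.46-fold (adjusted p = 2.31e-10).

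**Figure D2:**
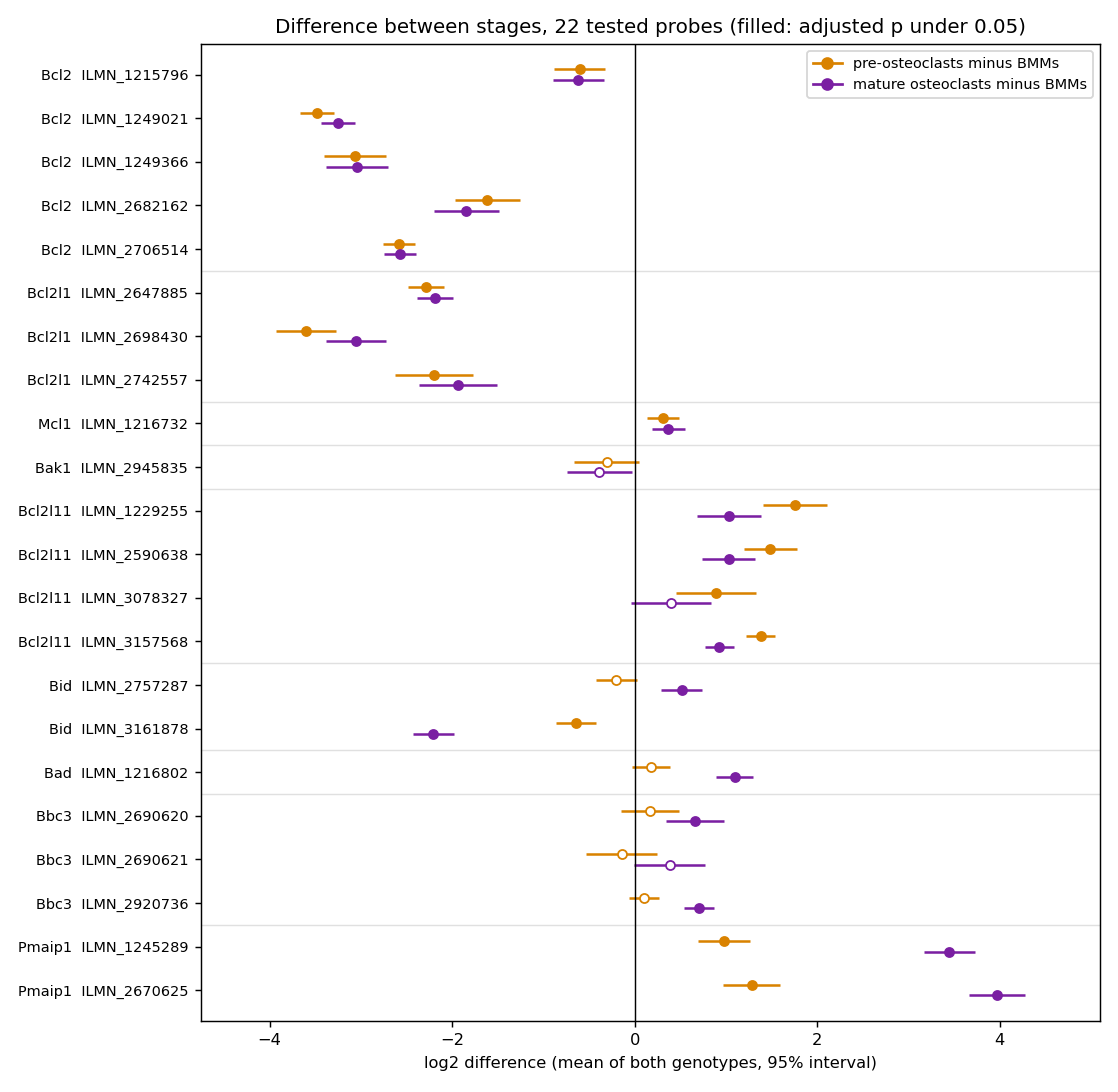
Log2 difference from BMMs (x axis, mean of both genotypes with its 95% interval) of the 22 tested probes, for pre-osteoclasts and mature osteoclasts, 6 arrays a stage; filled points passed an adjusted p of 0.05. All Bcl2 and Bcl2l1 points lie below 0, several of them measured against probes at background after RANKL, Bcl2l11 is further right in pre-osteoclasts, and both Pmaip1 probes move furthest in mature osteoclasts (3.45 and 3.97).

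Neutrophil and macrophage markers moved with the stages too. The summed linear level of the 8 tested neutrophil markers over both genotypes was between 14144 and 23345 in BMMs, between 5485 and 13955 in pre-osteoclasts and between 2849 and 4789 in mature osteoclasts, and Mpo was at background in the last. The sum of the 5 tested macrophage markers was 51848 to 56027, 18156 to 25227 and 10903 to 13210, with Cx3cr1 and Irf8 at background in mature osteoclasts. In such bulk RNA fewer cells of a type and less RNA per cell cannot be told apart, and the part of other cells in the stage differences was not tested.

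The comparison between genotypes asked whether these mRNAs differed between ERα ΔLysM and ERα f/f cells. Only ERα ΔLysM cells carried Cre, so that Cre and deletion of the receptor cannot be told apart. No member probe passed at any stage: 0 of 22 in BMMs (0.321% of all tested probes passed, 43 probes, and 4 without ERα ΔLysM BMM replicate 2), 0 of 22 in pre-osteoclasts (0.0746%) and 0 of 22 in mature osteoclasts (0.172%) by limma. At an unadjusted p of 0.05, 7, 2 and 3 of the 22 probes passed, beside 13.4%, 8.15% and 7.03% of all. The SE of a member probe was 0.19 in the median, and its 95% interval was up to 1.23 wide.

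**Figure D3:**
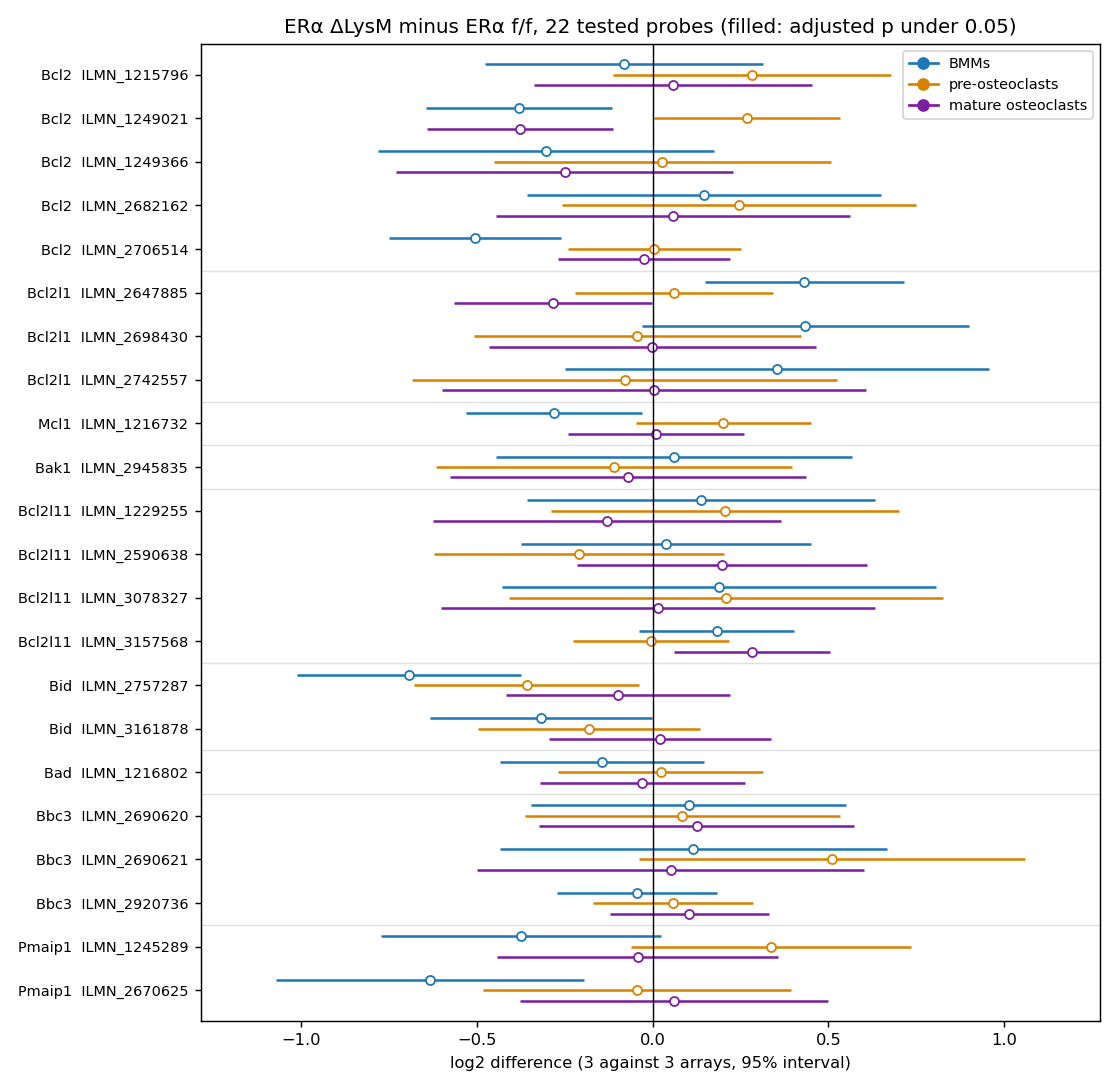
Log2 difference ERα ΔLysM minus ERα f/f (x axis, with its 95% interval, 3 against 3 arrays) of the 22 tested probes in BMMs, pre-osteoclasts and mature osteoclasts. Every point is open because none passed an adjusted p of 0.05, and the points lie between -0.69 (Bid ILMN_2757287 in BMMs, at background in ERα ΔLysM) and 0.51 (Bbc3 ILMN_2690621 in pre-osteoclasts, detected on 1 of 3 ERα f/f arrays).

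In BMMs the ERα f/f and ERα ΔLysM arrays did not overlap in 10 of 22 probes, beside 23.6% of all tested probes. The smallest adjusted p was that of Bid ILMN_2757287. Its values were 5.45, 5.74 and 5.56 in ERα f/f and 4.89, 4.80 and 4.97 in ERα ΔLysM BMMs. The probe was detected on 3 of 3 control arrays and on none of the ERα ΔLysM arrays, so that no fold was measured. Set against the lowest detected signals, the mean was 1.14-fold lower in ERα ΔLysM, a value without sampling error. The difference of -0.69 did not pass (adjusted p = 0.066). By the other Bid probe, ILMN_3161878, the values were 10.21, 10.22 and 10.24 against 9.86, 10.00 and 9.86. That difference was -0.32 (SE 0.15, adjusted p = 0.373), again with no overlap.

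Bcl2 by ILMN_2706514 was 7.43, 7.74 and 7.72 in ERα f/f and 7.22, 7.01 and 7.14 in ERα ΔLysM BMMs, a difference of -0.50 (SE 0.12, adjusted p = 0.0817). ILMN_1249021 differed by -0.38 (SE 0.12, adjusted p = 0.191) without overlap, whereas ILMN_1249366 (-0.30), ILMN_1215796 (-0.08) and ILMN_2682162 (0.15) overlapped. The Bcl2 probes thus did not all lie on the same side of 0. Array weights in the fit brought ILMN_2706514 and Bid ILMN_2757287 to an adjusted p of 0.017, and 296 of all probes passed with that setting in place of 43.

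Mcl1 was 12.74, 12.67 and 12.77 in ERα f/f and 12.38, 12.41 and 12.56 in ERα ΔLysM BMMs, a difference of -0.28 (SE 0.12, adjusted p = 0.313). Pmaip1 by ILMN_2670625 was 5.65, 5.98 and 6.36 against 5.46, 5.11 and 5.51, a difference of -0.63 (SE 0.21, adjusted p = 0.19), and ILMN_1245289 was detected on only 1 of these 6 arrays (adjusted p = 0.407). The arrays of Mcl1 and Pmaip1 lay lower without overlap, as did those of Bid. The Bcl2l1 values lay on the other side of 0: by ILMN_2647885 they were 6.65, 6.66 and 7.05 against 7.37, 7.21 and 7.08, a difference of 0.43 (SE 0.13, adjusted p = 0.178). ILMN_2698430 differed by 0.43 (SE 0.22, adjusted p = 0.41) with no overlap and ILMN_2742557 by 0.35 with overlap. Bcl2l11 ILMN_3157568 was the tenth probe without overlap, at 0.18 (SE 0.10, adjusted p = 0.469).

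The sides of 0 in BMMs depended on the scaling of the arrays. With median-centred arrays the median of all tested probes moved to -0.43, and 4 member probes passed the test, all lower in ERα ΔLysM: Bcl2 ILMN_2706514 (-0.91, adjusted p = 0.0335) and ILMN_1249021 (-0.84), Mcl1 (-0.92) and Bid ILMN_3161878 (-0.88). Relative to that median 13 of 22 member probes were higher. The Bcl2l1 probes were then at 0.04 (ILMN_2647885), -0.07 (ILMN_2698430) and -0.05 (ILMN_2742557), and Bcl2l11 ILMN_3157568 at -0.34.

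Some marker levels of neutrophils and osteoclasts also differed between the genotypes. In BMMs the summed linear level of 8 neutrophil markers was 14144 to 15647 in ERα f/f and 20975 to 23345 in ERα ΔLysM arrays. Of these, Ltf alone passed the test, higher by 0.65 (adjusted p = 0.0202). Among 10 tested osteoclast markers only Ctsk passed in BMMs, higher by 0.61 (adjusted p = 0.0351) in ERα ΔLysM. The other 9 lay on both sides of 0, between -0.12 (Car2) and 0.34 (Mmp9). In pre-osteoclasts the neutrophil sum was 5485 to 12379 in ERα f/f and 9411 to 13955 in ERα ΔLysM arrays, and Ltf was higher by 0.67 (adjusted p = 0.0173). In mature osteoclasts the sums, 2849 to 3882 and 4132 to 4789, did not overlap. None of the 8 neutrophil markers passed there, and Mpo (-0.21) and Ngp (-0.26) lay below 0, the others above. Of the osteoclast markers only Itgb3 passed in mature osteoclasts, higher by 1.09 (adjusted p = 0.0153) in ERα ΔLysM. Itgb3 was at background on every ERα f/f array of that stage, so that this difference has no fold. The other 9 tested osteoclast markers lay between -0.26 (Ocstamp) and 0.30 (Calcr). The part of other cells in the genotype values of any stage was not tested. The markers of this paragraph are named after their values were seen.

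In pre-osteoclasts 3 of 22 probes did not overlap (10.2% of all), and in mature osteoclasts 4 of 22 (14.2%). Bcl2 ILMN_1249021 was among them at both stages, yet it was at background in both genotypes there and gives no comparison. Bbc3 ILMN_2690621 was 5.13, 5.62 and 5.02 in ERα f/f and 5.66, 5.67 and 5.97 in ERα ΔLysM pre-osteoclasts, a difference of 0.51 (SE 0.26, adjusted p = 0.646) with 1 of 3 ERα f/f arrays detected, and the other Bbc3 probes differed by 0.08 and 0.06. Bid ILMN_3161878 was the remaining probe in pre-osteoclasts (-0.18). In mature osteoclasts Bcl2l11 ILMN_3157568 was 9.98, 9.94 and 10.14 in ERα f/f and 10.34, 10.30 and 10.27 in ERα ΔLysM, a difference of 0.28 (SE 0.10, adjusted p = 0.566). The others were Bcl2 ILMN_1249366 and Bcl2l1 ILMN_2647885, at or near background.

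Bak1 differed little between genotypes, with intervals on both sides of 0: 0.06 in BMMs (95% interval -0.45 to 0.57), -0.11 in pre-osteoclasts (-0.62 to 0.40) and -0.07 in mature osteoclasts (-0.58 to 0.44). In BMMs its values were 6.64, 7.43 and 7.02 in ERα f/f and 7.33, 7.15 and 6.79 in ERα ΔLysM, fully overlapping. Bad differed by -0.14, 0.02 and -0.03 at the 3 stages.

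Whether the genotype difference itself changed between stages was tested as an interaction. No member probe passed, 0 of 22 in each of the 3 contrasts, beside 0.0522%, 0.0597% and 0.00746% of all probes. At an unadjusted p of 0.05, 4, 4 and 1 of 22 passed, beside 9.67%, 10.2% and 4.41% of all. The smallest adjusted p was 0.278, for Bcl2l1 ILMN_2647885 between mature osteoclasts and BMMs, a probe at background in mature osteoclasts.

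The lists of other genes of the pathway are set beside the shares of all tested probes, which were 30.1% higher and 25.9% lower in pre-osteoclasts, and 34.8% higher and 33.4% lower in mature osteoclasts, all against BMMs. With so few genes a list, the counts are a description. Each gene is counted by its tested probe with the highest mean. Several genes, among them Bcl2l2, Parp1 and Cdkn1a with 3 tested probes each, have other tested probes whose values are not all given. Of 15 relatives of the family outside the 10 members, 8 had a tested probe, 4 (Bcl2l10, Hrk, Bcl2l14 and Bnip3) had only probes below the detection filter, and 3 (Bcl2a1a, Bcl2a1b and Bcl2l15) had no annotated probe in the table used here. From BMMs to pre-osteoclasts 4 of 8 rose and 3 fell, and to mature osteoclasts 5 rose and 2 fell. The median difference was -0.00 and 0.41, beside 0.05 and 0.04 over all tested probes. No relative passed between genotypes.

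Bok, a pore-forming relative of BAX and BAK, had a mean of 5.16 before RANKL, 7.86 after 2 days and 8.36 after 4 days. By this probe, ILMN_2772077, it was detected on 1 of 6 BMM arrays and on all 12 others, whereas ILMN_1237404 was detected on 1 of 18 arrays and not tested. Bok rose by 2.69 (SE 0.15, adjusted p = 9.56e-11) and 3.20 (SE 0.15, adjusted p = 5.37e-12). Bmf, a BH3-only gene whose protein is tethered to the actin motor complex, rose by 2.11 (SE 0.20) and 1.67 (SE 0.20). Bik, a BH3-only gene of the endoplasmic reticulum, went from detection on 6 of 6 BMM arrays to background on all 12 arrays with RANKL, at least 6.12-fold and at least 5.56-fold lower.

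Bcl2l2, which encodes the anti-apoptotic BCL-W, fell by 0.37 (SE 0.07) in pre-osteoclasts and rose by 0.35 (SE 0.07) in mature osteoclasts, both against BMMs. Bnip3l, a mitophagy receptor, rose by 0.49 and 0.99 (SE 0.08 each), and Bcl2l13, another mitophagy receptor of the outer membrane, by 0.37 and 0.47 (SE 0.06 each). Bcl2a1d, 1 of several near-identical A1 genes that a probe may not separate, fell by 0.50 in pre-osteoclasts (adjusted p = 0.0283). Bcl2l12 fell by 0.95 in mature osteoclasts by ILMN_2935909, and its other tested probe differed by 0.35 (adjusted p = 0.117).

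**Figure D4:**
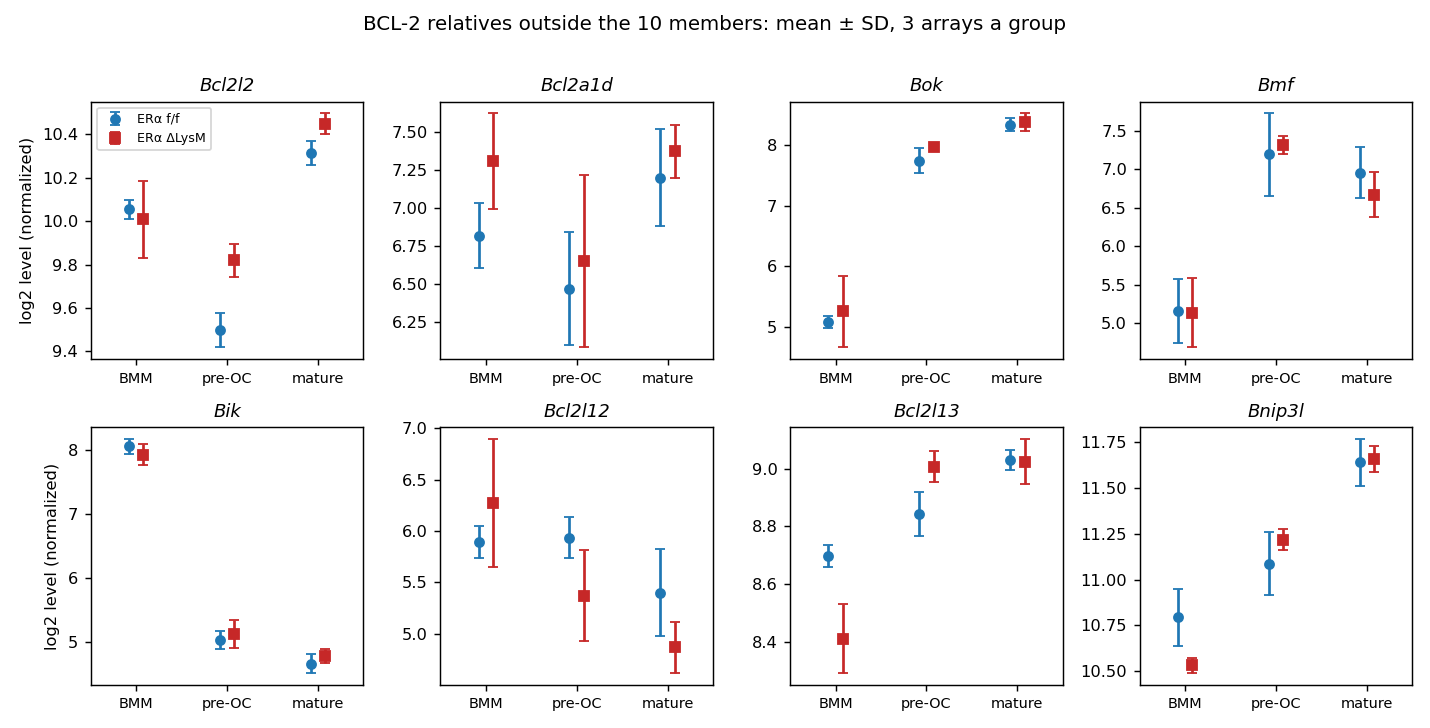
Normalized log2 level (y axis, a different range in each panel) of the 8 BCL-2 relatives with a tested probe, as mean ± SD of 3 arrays for ERα f/f and ERα ΔLysM at each stage (x axis). Bok and Bmf are near background in BMMs and high in both later stages, and Bik shows the reverse.

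Downstream of the pores, cytochrome c activates the apoptosome and caspases. Of 8 tested genes of that list 3 rose and 4 fell in pre-osteoclasts, and 5 rose and 3 fell in mature osteoclasts, where 68.2% of all probes passed in either direction. Apaf1, the scaffold of the apoptosome, fell by 0.85 (SE 0.08) and 1.43 (SE 0.08), Casp2 fell by 1.26 (SE 0.07) and Parp1, a caspase substrate, was lower by 0.80 in mature osteoclasts than in pre-osteoclasts. Casp6, an executioner caspase, rose by 0.85 and 1.31 (SE 0.08 each), and Dffa, an inhibitor of the apoptotic nuclease, by 1.17 (SE 0.13) in pre-osteoclasts.

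Among inhibitors of apoptosis and their mitochondrial antagonists 5 of 9 tested genes rose and 3 fell at either stage against BMMs, beside 56.0% and 68.2% of all probes that passed in either direction. Birc2 and Birc3, the cellular inhibitors of apoptosis, rose by 1.66 each in pre-osteoclasts (SE 0.09 and 0.23). Htra2, a mitochondrial protease that antagonises them, rose by 2.01 (SE 0.07) and 1.83 (SE 0.07). Birc5 (survivin), which also serves in cell division, fell by 0.51 in pre-osteoclasts and fell by 2.68 in mature osteoclasts (SE 0.09 each), and Naip5 fell by 2.24 (SE 0.15) in mature osteoclasts. Diablo was lower by 0.50 in mature osteoclasts than in pre-osteoclasts.

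Of the death receptor pathway 4 of 9 genes were tested. Fasl was at background on all 18 arrays, between 4.58 and 5.05, and gives no comparison. Fas, its receptor, had means of 8.45 before RANKL, 8.32 after 2 days and 6.99 after 4 days by ILMN_2902979, and fell by 1.46 (SE 0.09, adjusted p = 4.07e-10) in mature osteoclasts. A second probe, ILMN_2479290, fell by 1.22 (SE 0.14), and the other probe, ILMN_2454420, was at background. Tnfrsf1a fell by 0.81 in pre-osteoclasts and 0.95 in mature osteoclasts, Tnfrsf10b rose by 0.58 in mature osteoclasts by ILMN_2945095, and Fadd was lower by 0.18 in mature osteoclasts than in pre-osteoclasts. For Tnfrsf10b, a receptor for TRAIL, the other probes disagreed and fell by 0.40 (ILMN_2460875) and 0.23 (ILMN_2455181), both rarely detected. Fas differed between genotypes by -0.09, -0.10 and -0.08 at the 3 stages by ILMN_2902979 and by -0.42, -0.44 and 0.23 by ILMN_2479290, none of which passed.

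Of 8 tested mitochondrial partners of the family 4 rose and 1 fell in pre-osteoclasts (30.1% and 25.9% of all probes) and 5 rose in mature osteoclasts (34.8%), where the median was 0.72 beside 0.04 over all tested probes. Dnm1l, the mitochondrial fission GTPase, rose by 1.36 and 1.12, Opa1, which shapes cristae, by 0.90 and 1.34, and Vdac1, an outer membrane channel, by 0.88 and 1.08. Between the later stages Fis1 and Mff, which recruit the fission machinery, rose by 0.58 and 0.55. Mff rose by 1.82 by its other probe, ILMN_2732961. Mtch2, a docking site of BID, rose by 0.38 by ILMN_1229238, whereas its other probes differed by 0.11 and 0.05 and did not pass.

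Among 14 tested transcriptional and kinase regulators 5 rose and 6 fell in pre-osteoclasts (30.1% and 25.9% of all probes), and 3 rose and 4 fell in mature osteoclasts (34.8% and 33.4%). Cdkn1a, Mdm2 and E2f1 fell, by 1.82 (SE 0.07), 0.86 (SE 0.06) and 1.58 (SE 0.07) in mature osteoclasts, after a fall by 1.51, 0.21 and 0.82 in pre-osteoclasts. Foxo1, a forkhead factor known to act on Bcl2l11 and Bbc3, rose by 0.75 (SE 0.13, adjusted p = 0.000137) in pre-osteoclasts. Foxo3 was at background on all 18 arrays. Ddit3, the stress factor CHOP, rose by 1.37 (SE 0.15) from pre-osteoclasts to mature osteoclasts. No gene of these lists passed between genotypes at any stage.

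For the probe with the widest range of stage means in each role, the 3 tested probes with the most similar course over the 18 arrays were named by Pearson's r, as a description. Bcl2l1 ILMN_2698430 was closest to 2510009E07Rik (0.989), Ccl4 (0.986) and Plau (0.986). Pmaip1 ILMN_2670625 was closest to both Atp6ap2 probes (0.991 and 0.986) and to H2bc18 (0.985). Bak1, with a stage range of only 0.39, reached 0.772 with Slc6a19, 0.757 with Mfng and 0.756 with Tex2. The arrays share their stages, so that any gene that follows the stages scores high.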

How the data were processed

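Total RNA was hybridised to Illumina MouseRef-8 bead arrays, 1 array for each of 18 samples. The authors deposited the mean bead signal of each probe, an intensity without normalization, with its detection p-value against negative control beads. The authors also deposited log2 values, normalised with the lumi package in R, with settings not given in the sources used here. Of 26529 features measured, 832 without a probe ID were dropped, and 23978 of the other 25697 probes had 1 gene symbol in the platform annotation and 1719 none.

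The intensity values were background corrected with normexp on the detection p-values, given an offset of 16, quantile normalised and log2 transformed (neqc, limma 3.58.1 in R 4.3.3). They differed from the log2 values deposited by the authors by at most 0.0281. Probes with a detection p below 0.05 on at least 3 arrays were tested in 1 linear model with a mean for each of 6 groups and 12 residual degrees of freedom, with empirical Bayes moderation. A genotype difference above 0 means a higher level in ERα ΔLysM cells. Each probe was kept apart, and for genes outside the family 1 probe a gene, the one with the highest mean, stood for the gene in the counts. The fit was tested on simulated data with known changes. Promoter windows came from RefSeq and were searched with Python 3.11.15.

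All probes of the members were named whatever their values, all relatives, up to 3 genes a list and stage comparison with the largest change past the threshold, and Fas and Fasl. Members and lists were chosen with earlier results of these data known. Same-numbered arrays of the genotypes deviated together, at a correlation over 0.1, in only 1 of 9 pairs. That pair was replicate 1 of the pre-osteoclasts (0.355), and the numbers were not used as pairs. Alternatives covered the background correction, the scaling, the filter, the arrays in the fit, the prior, array weights, a block, left-out arrays and the threshold.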

Additional observations from a re-analysis of the deposited data

How the results depend on the processing

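Among the alternatives run on member probes, no result that passed the test changed its direction. In BMMs the count between genotypes, 0 of 22, became 4 with median-centred arrays, 2 with array weights, 2 with an adjusted p under 0.10, and 0 to 1 when arrays were left out in turn. The 1 probe was Bid ILMN_2757287 without ERα f/f pre-osteoclast replicate 3 (adjusted p = 0.026). The count stayed at 0 in pre-osteoclasts, in mature osteoclasts and for the interactions under every alternative. Over all probes the BMM count of 43 was 786 with median-centred arrays, 191 without background correction, 296 with array weights, 133 with a trended and robust prior, 27 without a filter, 23 with the replicate block, 0 in the fit on BMM arrays alone, 4 at 0.01 and 92 at 0.10. Without 1 BMM array the count of 43 was 4 to 31, with 4 without ERα ΔLysM replicate 2, 5 without ERα f/f replicate 2 and 7 without replicate 3 of either genotype, and 27 without ERα ΔLysM replicate 1. Without 1 array of a later stage it was 14 to 38, lowest without ERα f/f mature osteoclast replicate 1 or 2. For the other stages, counts of 10 (pre-osteoclasts) and 23 (mature osteoclasts) became 5 to 15 and 8 to 27, lowest without ERα ΔLysM pre-osteoclast replicate 2 and ERα f/f mature osteoclast replicate 1. Left-out arrays gave 16 to 17 member probes between pre-osteoclasts and BMMs, 19 to 21 between mature osteoclasts and BMMs and 11 to 14 between the later stages.

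Median-centred arrays changed the split between higher and lower to 7 and 10 (10 and 9 before) between mature osteoclasts and BMMs, and to 5 and 5 (9 and 4 before) between the later stages. Same-numbered arrays correlated at -0.107 to 0.355 between genotypes, over 0.1 in 1 of 9 pairs. With the replicate number as a block 0 genotype calls and 16, 19 and 12 stage calls were made, and the call lost was Bcl2 ILMN_1249021 between the later stages (adjusted p = 0.0559). The cause of these changes was not tested. A block for the slide was not run, since the headers name none. Where a probe was at background on every array of a stage, only a bound could be given.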
